A study of Homo sapiens with 16 samples.

Results

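The comparison described here is that of K562 cells after 3 h of phorbol 12-myristate 13-acetate (PMA) with untreated K562 cells at 0 h. It rests on 4 of the series' 16 RNA-seq libraries, 2 for each time, and these were taken by their time labels alone. K562 is an established human leukaemia line with erythroid and megakaryocytic features, labelled wild type throughout, and all cells were kept in RPMI medium with serum and antibiotics. The 3 h cells had received 25 nM PMA, given to push the line towards a megakaryocyte-like state, while the 0 h libraries carry the same treatment label at a time of 0 min and are taken as untreated. Parallel groups of 2 libraries at 1.5 h and 6 h of the same treatment serve below to place the 3 h values in time. Total RNA was depleted of ribosomal RNA before sequencing. No time-matched untreated or vehicle-treated cells are used here, so that time in culture and PMA cannot be told apart. The model is a single cell line, and nothing in the labels says that the replicates were separate cultures. The p-values therefore measure only the spread between replicate libraries, which may be technical. That spread was estimated over all 16 libraries of the series together.

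PMA stands in for diacylglycerol, the lipid second messenger that recruits protein kinase C and RasGRP proteins to membranes. From there the signal runs through Ras, RAF, MEK and ERK to factors such as SRF with its ETS-family partners and AP-1, and through separate adaptors to NF-kB. Immediate-early genes respond without new protein synthesis, and many of their products are transcription factors or inhibitors that act on the genes that follow. In K562 cells the treatment is widely used as a model of megakaryocytic commitment, in which erythroid genes decline and adhesion rises.

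The 0 h libraries held 29562385 and 29241520 estimated reads and the 3 h libraries 42909089 and 32630167, within the 27285773 to 54056289 of the whole series. Replicate log2 CPM (reads per 1000000, on scaled library sizes) correlated at r = 0.984 at both times. The replicate pairs at 0 h and 3 h were nevertheless less alike than those at 0.5, 1.5, 6, 24 and 48 h. The SD over genes of the replicate difference was 0.359 at 0 h and 0.28 at 3 h, against at most 0.177 at those 5 times. At 0 h this difference followed the GC content of the genes, with r = -0.71 over 9972 well covered genes, and at 3 h the r was 0.37; these are correlations across genes, which are not independent replicates. The log2 fold change between the groups had an r of -0.14 with GC content over the same genes. The part of GC content in the results was not tested beyond the fits without its trend. In bulk libraries such as these, fewer cells expressing a gene and less RNA per cell cannot be told apart.

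Of 17559 genes tested, 7370 (42.0%) were called at an adjusted p under 0.05 in edgeR's quasi-likelihood test with Benjamini-Hochberg adjustment. Of these, 3775 genes (21.5% of those tested) were higher at 3 h and 3595 (20.5%) were lower. The called rises reached further than the called falls. At least 4-fold changes were 860 higher and 233 lower, and at least 2-fold changes were 1715 higher and 1190 lower. Levels under trimmed-mean scaling are relative to the bulk of genes, whose median log2 fold change was 0.00. Scaling libraries to their total counts instead moved that median to -0.276 and the called genes to 2356 higher and 6242 lower, so that the share of calls that were higher went from 51.2% to 27.4%. All directions below are relative to the trimmed-mean scaling. Those of list medians, and of called genes named by the rule, that turn under total counts are named. A fit on the 4 compared libraries alone called 4823 genes. It had fewer samples to estimate the spread, and used only the 0 h and 3 h pairs, which were less alike than most others. The part of each was not tested.

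**Figure D1:**
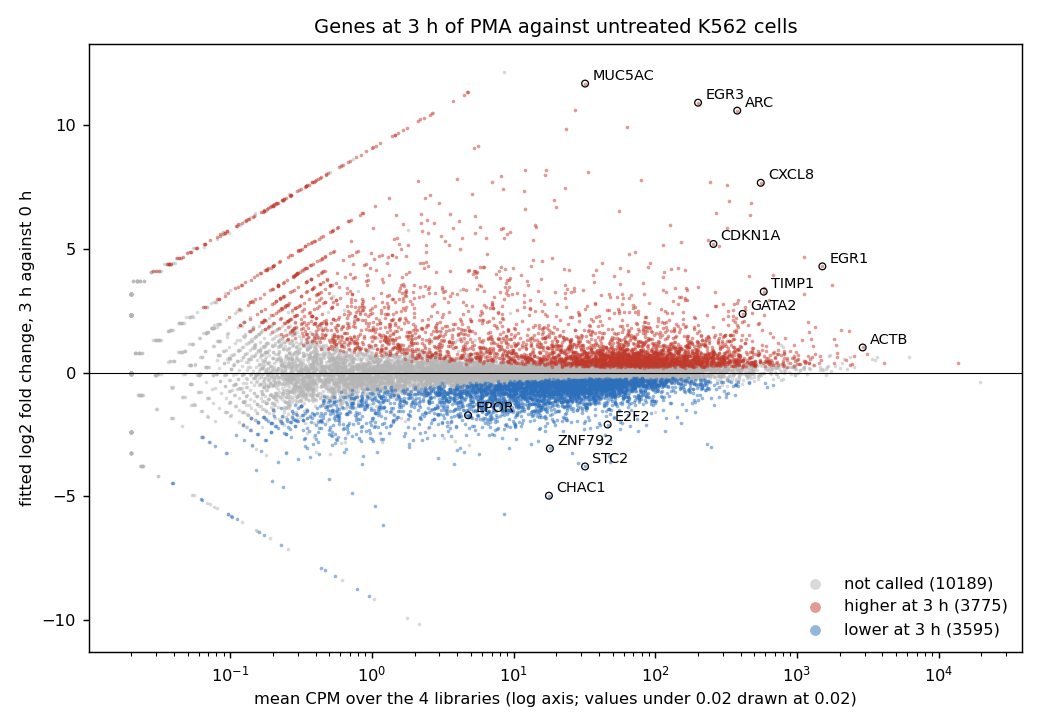
Each point is a gene, with its mean CPM over the 4 libraries of 0 h and 3 h on a log axis and its fitted log2 fold change on the vertical axis; red and blue points were called. The labelled rises reach a log2 fold change of 11.69 for MUC5AC, while the labelled falls end at -4.97 for CHAC1; the slanted lines on the left are genes with few reads in a group.

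The largest rises came from genes that the untreated cells hardly expressed. EGR3, a zinc finger factor of the early growth response family (chr8:22687659-22693302, minus strand), was at 0.184 and 0.225 CPM in the 0 h libraries and at 415 and 386 CPM at 3 h. Its log2 fold change was 10.91 (edgeR adjusted p = 7.7e-13, SE 0.22). EGR2 (chr10:62811996-62919900) went from 0.0921 and 0.161 CPM to 131 and 122 CPM, a log2 fold change of 9.93 with SE 0.19 (edgeR adjusted p = 6.82e-13). For EGR4 (chr2:73290929-73293705) neither 0 h library held a read and the 3 h libraries stood at 7.92 and 6.91 CPM, at least 76.8-fold higher against a floor of 3 reads per library. The groups were wide apart for each of these EGR genes, and the replicates lay close together.

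ARC (chr8:142611044-142614472), an immediate-early gene best known from neurons, where it regulates receptor traffic at synapses, stood at 0.307 and 0.676 CPM at 0 h and at 899 and 616 CPM at 3 h. This was a log2 fold change of 10.59 (edgeR adjusted p = 7.74e-11, SE 0.36). MUC5AC (chr11:1157953-1201138), a gel-forming secreted mucin, had 1 read in one untreated library and 0 in the other, against 58.3 and 69.6 CPM at 3 h. The ratio of summed reads was 4034, with an exact 95% interval of 724 to 159388 that covers counting error only. SOX8 (chr16:981808-986979), an HMG-box transcription factor, had 1 read in each 0 h library and 60.8 and 48.5 CPM at 3 h, a ratio of 1755 with an exact interval of 486 to 14499. NPTX1, a neuronal pentraxin, and CXCR3, a receptor for interferon-induced chemokines, had no reads at 0 h. NPTX1 (chr17:80467148-80477843) was at 9.4 and 8.51 CPM at 3 h, a rise of at least 92.7-fold with an edgeR adjusted p of 2.65e-08. CXCR3 (chrX:71615916-71618517) was at 6.39 and 4.27 CPM at 3 h, a rise of at least 55.2-fold with an edgeR adjusted p of 2.47e-07.

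The largest falls were of genes with moderate levels in untreated cells. CHAC1 (chr15:40952962-40956519), a glutathione-degrading enzyme induced by amino acid stress, fell from 30.6 and 38.3 CPM to 1.32 and 0.848 CPM, a log2 fold change of -4.97 (edgeR adjusted p = 1.17e-08, SE 0.28). STC2 (chr5:173314713-173329503), a secreted glycoprotein, fell from 58.7 and 60.6 CPM to 4.55 and 4.04 CPM (edgeR adjusted p = 9.48e-11 for a log2 fold change of -3.79 with SE 0.13). INHBE, which encodes the activin E chain and lies at chr12:57452323-57459280, fell from 77.9 and 94.9 CPM to 9.98 and 6.46 CPM. All 3 had lower values in both 3 h libraries than in either untreated library, by a wide margin.

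KLF1 (chr19:12884422-12887199), the Krüppel-like factor that drives adult globin and other erythroid genes, fell from 43.8 and 61.4 CPM to 4.17 and 4.11 CPM. Its log2 fold change was -3.67 (edgeR adjusted p = 1.83e-09, SE 0.17). NFE2 (chr12:54292111-54301121), the factor needed for platelet release, fell from 78.9 and 99.1 CPM to 7.62 and 6.82 CPM (edgeR adjusted p = 5.82e-10 for a log2 fold change of -3.62 with SE 0.15). CISH, a cytokine-inducible inhibitor of STAT5 signalling, was at 42 and 51.4 CPM at 0 h and at 5.95 and 3.91 CPM at 3 h. Its exons overlap those of MAPKAPK3, and reads of the pair may be split between them. OTX1, a homeobox factor, went from 8.93 and 11.9 CPM to 1.1 and 1.04 CPM, and SYBU, a microtubule-linked transport protein, from 5.03 and 5.79 CPM to 0.521 and 0.457 CPM. Both were called, with edgeR adjusted p of 2.08e-08 for OTX1 and 6.59e-08 for SYBU.

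**Figure D2:**
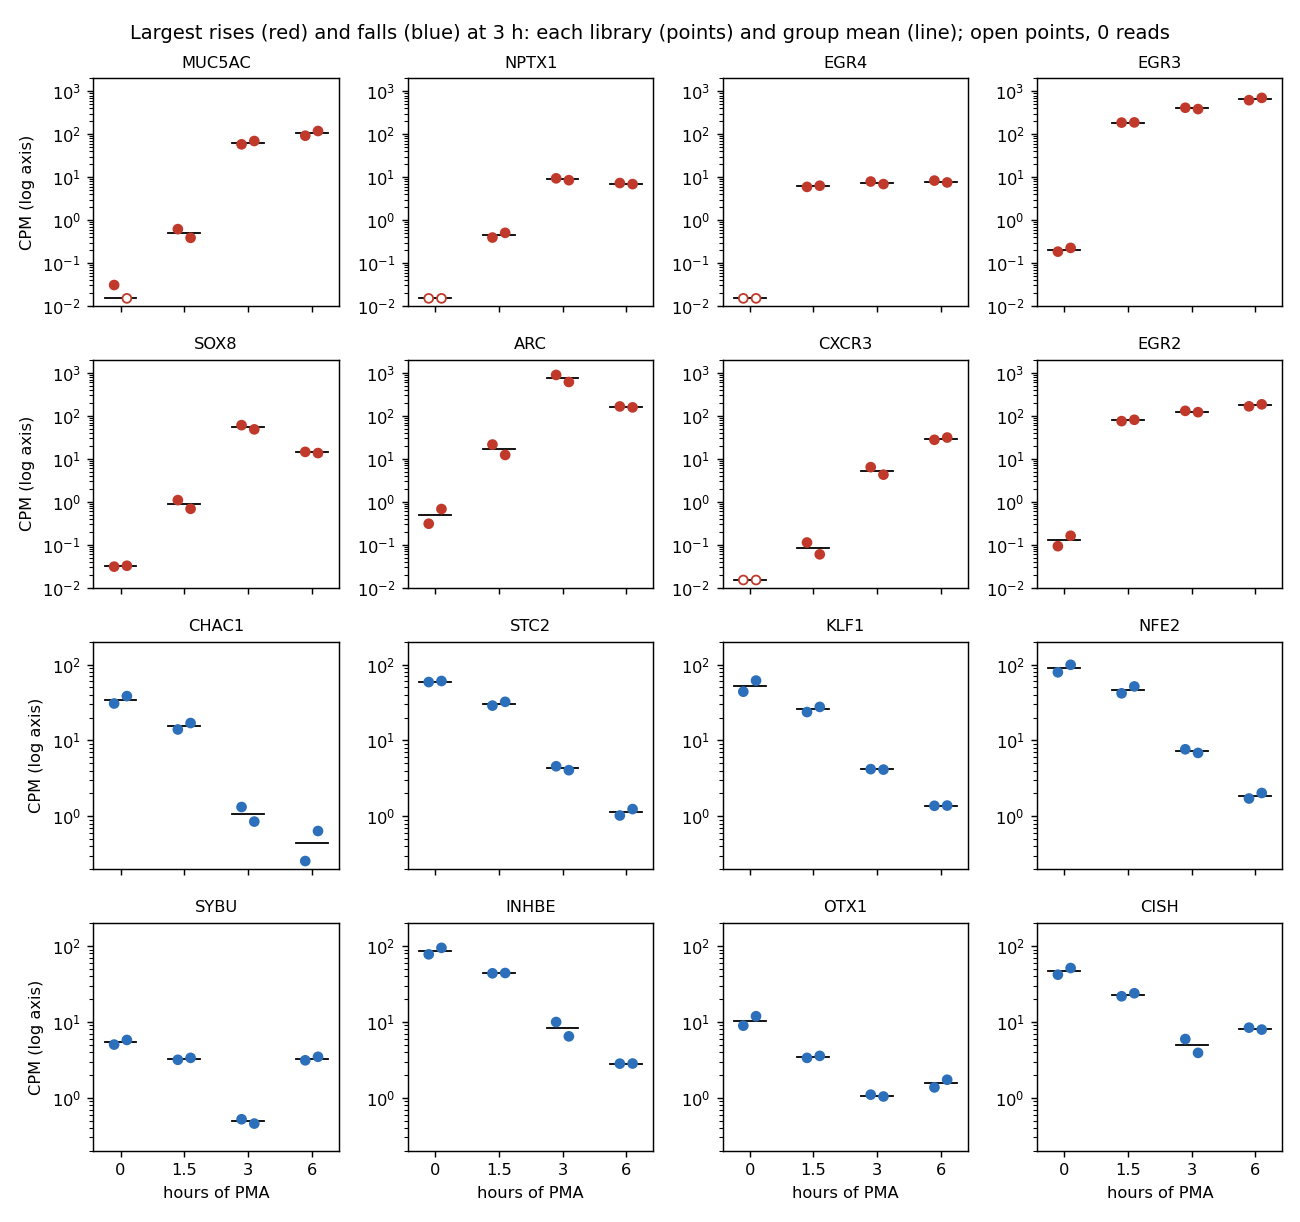
CPM of the 8 largest rises (red) and 8 largest falls (blue) in each library at 0, 1.5, 3 and 6 h of PMA on log axes, with group means as lines and open points for libraries with 0 reads. The means of ARC, SOX8 and NPTX1 stand highest at 3 h and those of SYBU, CISH and OTX1 lowest. NPTX1 and OTX1 were not called at 3 h against 6 h. CXCR3 goes from 5.33 CPM on average at 3 h to 29.5 CPM at 6 h.

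Among immediate-early genes, 28 of the 32 tested were higher at 3 h and none was lower, where 21.5% of all tested genes were higher and 20.5% lower, with a median log2 fold change of 3.29 where all tested genes had 0.00. The remaining 4 were ATF3, SRF, KLF4 and MYC, with log2 fold changes of -0.25, 0.08, 0.06 and -0.32 and edgeR adjusted p of 0.116, 0.685, 0.866 and 0.188. Under total-count scaling 2 members were called lower. IER3 had 0 assigned reads in all 4 libraries and was not tested; reads of transcripts that could not be matched to the annotation were left out, so that 0 assigned reads do not show a gene to be silent. Members of lists longer than 16 genes that are named beyond the largest rise, the largest fall and the most reads were chosen after their values were seen. The member with most reads was EGR1 (chr5:138465490-138469315), at 118 and 175 CPM untreated and at 3011 and 2746 CPM at 3 h (edgeR adjusted p = 2.67e-09 for a log2 fold change of 4.30 with SE 0.21). FOS and BTG2, chosen after their values were seen, show how members differed. FOS, the AP-1 subunit whose induction is classically brief, was at 6.08 and 6.18 CPM at 0 h and at 251 and 191 CPM at 3 h. BTG2, an antiproliferative gene, rose from 10.2 and 11.9 CPM to 953 and 899 CPM.

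The promoters of some of these genes hold the CArG box, the SRF site that links serum and phorbol signals to immediate-early and actin genes. Of 26 immediate-early promoters in the RefSeq table (GRCh38.p14, 250 bases before to 50 after the start), 2 held a match, those of EGR1 and SRF, where 1.15% of 12122 promoters of tested genes did. EGR1 held 2 matches, beginning 105 and 83 bases upstream of the start. The stretch around them is shown because EGR1 took most reads of its list and because the same box recurs in the actin genes below; capitals mark the matches. It lies at chr5:138465334-138465445 on the plus strand.
EGR1: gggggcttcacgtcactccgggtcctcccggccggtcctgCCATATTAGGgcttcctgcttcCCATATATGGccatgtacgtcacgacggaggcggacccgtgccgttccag

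Most negative regulators of the same pathway were higher at 3 h. Of 16 ERK feedback genes, 12 were higher, 1 was lower and 3 were not called, where 21.5% of all tested genes were higher and 20.5% lower. The median log2 fold change was 1.60, or 1.54 with DUSP2 at its lower bound. It was 2.22 in the fit on the compared libraries alone and 2.32 with at least 10 counts required in every library. SPRY4, a Sprouty inhibitor of receptor signalling to ERK, was at 51.4 and 63.3 CPM at 0 h and at 937 and 778 CPM at 3 h (edgeR adjusted p = 3.75e-11 for a log2 fold change of 3.90 with SE 0.12). The nuclear ERK phosphatase DUSP5 rose from 3.84 and 4.28 CPM to 283 and 221 CPM, and DUSP1, which prefers p38 and JNK, had a log2 fold change of 4.14. ERRFI1, an inhibitor of EGF receptors, had 3.95. DUSP2 had no reads at 0 h and 0.411 and 0.424 CPM at 3 h, a rise of at least 4.32-fold. The cytoplasmic phosphatase DUSP7 fell from 13.1 and 18.8 CPM to 6.2 and 5.94 CPM (edgeR adjusted p = 3.14e-05 for a log2 fold change of -1.39 with SE 0.18). DUSP6, often used as a readout of ERK activity, averaged 0.35 CPM at 0 h and 0.178 CPM at 3 h and was not called (edgeR adjusted p = 0.17).

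Of the proteins that bind phorbol esters, 5 of 18 members were higher and 5 lower, beside 21.5% and 20.5% of all tested genes, with a median log2 fold change of -0.28. PRKCB, which took most reads, was at 564 and 577 CPM at 0 h and at 670 and 580 CPM at 3 h and was not called (edgeR adjusted p = 0.288). PRKCD, the delta isoform of protein kinase C, rose with a log2 fold change of 2.25 (edgeR adjusted p = 6.69e-06), while PRKCQ fell from 35 and 37.3 CPM to 18.8 and 16.4 CPM (edgeR adjusted p = 3.55e-06 for a log2 fold change of -1.03 with SE 0.11). The count called was not stable, being 2 higher and 9 lower under total-count scaling. Omitting 0 h replicate 2 gave 3 higher and 3 lower, and omitting either 0 h replicate 1 or 3 h replicate 2 gave 3 higher.

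NF-kB pathway genes were higher in 8 of 16 cases and lower in 3, beside 21.5% and 20.5% of all tested genes. Their median log2 fold change was 0.48. RELB, the partner of p52 in the non-canonical arm, rose from 1.17 and 1.35 CPM to 19.8 and 15.7 CPM (edgeR adjusted p = 1.59e-08 for a log2 fold change of 3.82 with SE 0.22). REL, with most reads in the list, rose from 169 and 109 CPM to 223 and 279 CPM (edgeR adjusted p = 0.000904 for a log2 fold change of 0.85). NFKB1 and the inhibitors NFKBIA and NFKBIE rose with log2 fold changes of 1.03, 1.12 and 1.04. TRAF1 had 3.40 and BIRC3 1.67. The atypical inhibitor BCL3 fell with -1.03, TNFAIP3 with -0.34 and TNIP1 with -0.43, the latter pair being brakes on the pathway. These falls were the less firm part: without 0 h replicate 2 the members called lower went from 3 to 1, and without 3 h replicate 2 to 0. The NF-kB motif by name was matched in 7 of 14 promoters of the list, against 6.43% of all 12122.

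Secreted ligands rose widely, where 21.5% of all tested genes were higher and 20.5% lower. Of 23 tested, 16 were higher and 1 was lower, with a median log2 fold change of 4.09, which becomes 3.06 when CCL3 and CCL4, without reads at 0 h and not called, are set at their bounds; it was 3.07 with at least 10 counts required in every library and 3.42 with counts derived from TPM. CXCL8 (chr4:73740506-73743716), the main neutrophil-attracting chemokine, was at 6.08 and 4.73 CPM untreated and at 1137 and 1075 CPM at 3 h. Its log2 fold change was 7.67 (edgeR adjusted p = 2.17e-12, SE 0.18). Its neighbours in the CXC cluster followed the same direction, with log2 fold changes of 5.37 for CXCL3, 3.64 for CXCL2 and 4.44 for CXCL1. Of the 31-base words of CXCL2, 20.4% also occur in other genes, mainly CXCL3 and CXCL1, between which reads may be split. Here and below, these words are all stretches of 31 bases in the gene's transcript with most reads. PDGFA, a growth factor carried by platelets and chosen after its values were seen, rose from 6.75 and 8.34 CPM to 323 and 269 CPM. VEGFA fell, from 372 and 465 CPM to 229 and 196 CPM (edgeR adjusted p = 8.74e-06 for a log2 fold change of -0.98 with SE 0.11). TNF and TGFA had 0 assigned reads in the 4 libraries and OSM at most 7, and they were not tested.

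Genes of proteolysis at the cell surface moved in the same direction as the ligands. Of 18 tested, 12 were higher and none was lower, beside 21.5% and 20.5% of all tested genes. The median log2 fold change was 1.46, or 2.15 without 0 h replicate 1 and 2.20 in the fit on the compared libraries alone. TIMP1, an inhibitor of matrix metalloproteinases, rose from 81.1 and 137 CPM to 1101 and 1013 CPM (edgeR adjusted p = 6.5e-08 for a log2 fold change of 3.28 with SE 0.22). The urokinase receptor PLAUR rose from 9.73 and 13.6 CPM to 116 and 94.1 CPM and its ligand PLAU from 11 and 12.4 CPM to 108 and 85.1 CPM. MMP9, MMP3 and MMP14 were not called. CCN2 had 0 assigned reads in the 4 libraries and was not tested.

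The AP-1 site is known to carry the phorbol response of several protease and chemokine genes. Letters TGANTCA, read on both strands, were found in 4 of 11 promoters of the proteolysis list (PLAUR, MMP10, SERPINB2 and SERPINB8) and in 5.04% of all 12122. Changes of MMP10, SERPINB2 and SERPINB8 are not given here, and a match does not by itself show that a gene rose. Stretches with a match are shown for the receptor gene, a stromelysin gene and the chemokine gene CXCL8, with capitals marking the match. They lie at chr19:43670309-43670395 (minus strand) for PLAUR, at chr11:102780649-102780735 (minus strand) for MMP10 and at chr4:73740392-73740478 (plus strand) for CXCL8, and the matches begin 186, 67 and 137 bases upstream of the RefSeq starts; that of PLAUR lies inside its GENCODE span.
PLAUR: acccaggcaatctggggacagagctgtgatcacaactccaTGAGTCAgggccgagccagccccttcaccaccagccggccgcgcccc
MMP10: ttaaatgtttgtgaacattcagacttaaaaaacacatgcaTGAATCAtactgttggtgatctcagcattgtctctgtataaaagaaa
CXCL8: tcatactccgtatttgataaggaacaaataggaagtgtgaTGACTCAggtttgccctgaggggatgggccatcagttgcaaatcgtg

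Actin and adhesion genes rose broadly and moderately. Of 32 tested, 21 were higher and 2 lower, beside 21.5% and 20.5% of all tested genes. The median log2 fold change was 0.89, and the summed CPM of the list went from 8354 and 9649 at 0 h to 19730 and 15630 at 3 h. ZYX, a focal adhesion protein that responds to tension, rose from 72.8 and 104 CPM to 756 and 596 CPM (edgeR adjusted p = 3.15e-08 for a log2 fold change of 2.93 with SE 0.18). ACTB, with most reads, rose from 1786 and 2065 CPM to 4368 and 3433 CPM (edgeR adjusted p = 1.49e-05 for a log2 fold change of 1.02 with SE 0.12); 30% of its 31-base words occur in other genes, mainly ACTG1. ITGA5, the fibronectin receptor chain, fell from 149 and 183 CPM to 94.9 and 75.9 CPM (edgeR adjusted p = 1.97e-05 for a log2 fold change of -0.96 with SE 0.12), as did TES by 0.34. Total-count scaling left 16 higher and 6 lower.

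CArG boxes were matched in 5 of 28 promoters of the actin list, those of TPM4, ACTG1, FHL2, FLNA and CNN2. Of these, TPM4, ACTG1, FHL2 and FLNA rose, with log2 fold changes of 2.15, 1.71, 1.28 and 1.11, and CNN2, at -0.14, was not called (edgeR adjusted p = 0.415). TPM4, a tropomyosin, was at 121 and 140 CPM at 0 h and at 599 and 553 CPM at 3 h. ACTG1, cytoplasmic gamma-actin, was at 858 and 1058 CPM at 0 h and at 3576 and 2703 CPM at 3 h. The boxes of both are shown for comparison with EGR1, from chr19:16067325-16067414 (plus strand) and chr17:81512844-81512933 (minus strand), and begin 173 and 94 bases upstream of the RefSeq starts, both inside the longer GENCODE spans of these genes. A match is a description of letters, and binding was not measured.
TPM4: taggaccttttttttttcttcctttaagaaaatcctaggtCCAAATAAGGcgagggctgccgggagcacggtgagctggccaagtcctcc
ACTG1: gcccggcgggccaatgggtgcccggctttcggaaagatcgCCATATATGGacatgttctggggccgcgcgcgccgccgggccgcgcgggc

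Blood transcription factors were the list with the lowest median log2 fold change, -0.46. Of 34 members, 17 were lower and 6 higher, beside 20.5% and 21.5% of all tested genes. GATA1 and GATA2, chosen together after their values were seen because they share binding sites and alternate in erythroid development, went opposite ways. GATA1 fell from 107 and 155 CPM to 63.3 and 46.2 CPM (edgeR adjusted p = 2.17e-05 for a log2 fold change of -1.26 with SE 0.16). GATA2, which also took most reads of the list, rose from 113 and 154 CPM to 749 and 638 CPM (edgeR adjusted p = 7.45e-08 for a log2 fold change of 2.38 with SE 0.16). MYB, a factor of cycling progenitors, fell from 241 and 250 CPM to 60.7 and 58.9 CPM. LMO2, LYL1, TAL1 and LDB1, members of the complex that GATA factors join at erythroid genes, fell with log2 fold changes of -1.59, -1.69, -0.66 and -1.04. RUNX1 fell with -1.11, while RUNX2 and their shared partner CBFB rose with 1.53 and 1.34. ERG, an ETS factor of megakaryocytes, had 2 reads in one untreated library and 0 in the other and 0.384 and 0.554 CPM at 3 h, a ratio of 14.7 with an exact interval of 3.74 to 127. FLI1, the other megakaryocytic ETS factor, averaged 0.0951 and 0.109 CPM and was not called.

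Of 36 erythroid genes, 11 were lower, 2 were higher and 23 were not called, where 21.5% of all tested genes were higher and 20.5% lower, with a median log2 fold change of -0.17. EPOR, the erythropoietin receptor, fell from 6.87 and 7.79 CPM to 2.47 and 1.96 CPM (edgeR adjusted p = 2.04e-05 for a log2 fold change of -1.72 with SE 0.21). Haem synthesis genes were among the falls, with log2 fold changes of -1.46 for the glycine importer SLC25A38, -1.16 for CPOX and -1.04 for FECH. The globins were not called. HBG2, fetal gamma-globin and the member with most reads, was at 736 and 905 CPM at 0 h and at 973 and 647 CPM at 3 h, so that the groups overlapped; 83.7% of its 31-base words occur in other genes, first HBG1, and its reads cannot be split from them with certainty. TFRC, the transferrin receptor, rose by 0.46 on the log2 scale (edgeR adjusted p = 0.0203), from 370 and 303 CPM to 506 and 421 CPM, but stood at -0.24 with counts derived from TPM and lost its call without 0 h replicate 2 or 3 h replicate 1. Total-count scaling gave 21 lower and 0 higher. The fit on the 4 compared libraries gave 7 lower and 0 higher. The members called higher were 0 on omitting 3 h replicate 1 and 1 on omitting either replicate 2.

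Megakaryocyte genes had not moved together at 3 h. Of 24 members, 17 passed the filter on low counts, 5 were higher and 6 lower, beside 21.5% and 20.5% of all tested genes. The median log2 fold change was -0.13, or 0.06 without 0 h replicate 2. ITGA2B, the integrin chain of the platelet fibrinogen receptor, was at 52.6 and 62.9 CPM at 0 h and at 57.8 and 47.4 CPM at 3 h, with overlapping groups (edgeR adjusted p = 0.342). Its partner ITGB3 rose from 1.75 and 1.29 CPM to 7.43 and 6.17 CPM (edgeR adjusted p = 1.27e-07 for a log2 fold change of 2.16 with SE 0.16), and at 6 h was at 55 and 57.2 CPM. Of the 31-base words of ITGB3, 56.4% also occur in a gene with overlapping exons, and reads may be split between them. VWF had no reads at 0 h and 0.631 and 0.75 CPM at 3 h, a rise of at least 7.15-fold. ANGPT1 fell from 86.4 and 59.7 CPM to 31.9 and 29.9 CPM. Late platelet genes PF4, GP9, SELP, F13A1 and TREML1 had at most 1 assigned read in any of the 4 libraries.

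Genes of the amino acid stress response driven by ATF4 were lower in 14 of 31 cases and higher in 3, beside 20.5% and 21.5% of all tested genes. Their median log2 fold change was -0.38. CHAC1 and STC2 are given above. DDIT4, an inhibitor of mTOR and chosen after its values were seen, fell from 387 and 494 CPM to 61.4 and 47.2 CPM (edgeR adjusted p = 8.32e-10 for a log2 fold change of -3.02 with SE 0.13). ATF4 itself fell with -0.67 and its target TRIB3 with -0.76, though 53.8% of the 31-base words of ATF4 occur in pseudogenes and other genes. SLC7A11, the cystine importer, rose from 343 and 230 CPM to 503 and 448 CPM (edgeR adjusted p = 0.00342 for a log2 fold change of 0.73 with SE 0.17). WARS1, which took most reads, was at 749 and 802 CPM and then 970 and 874 CPM (edgeR adjusted p = 0.0473 for a log2 fold change of 0.25), a call that 7 of the alternative fits lost; under total-count scaling its value was -0.03. Total-count scaling called 25 lower and 1 higher. The ATF4 letters TGATGCAA was matched on either strand in 3 of 24 promoters of the list (AARS1, CARS1 and CHAC1, all lower), against 0.577% of all 12122. The CHAC1 stretch shown lies at chr15:40953222-40953309 and is written on the plus strand. Its match reads as these letters on the reverse strand and begins 209 bases upstream of the RefSeq start used for the window. GENCODE places the start of the gene further upstream, so that the match lies inside the gene span given above.
CHAC1: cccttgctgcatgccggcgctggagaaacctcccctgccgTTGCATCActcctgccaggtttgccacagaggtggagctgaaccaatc

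Genes that control entry into S phase were higher in 8 of 23 tested cases and lower in 7, beside the 21.5% and 20.5% of all genes, with a median log2 fold change of 0.09, which was -0.20 under total-count scaling. CDKN1A, the CDK inhibitor p21, rose from 12.5 and 14.8 CPM to 579 and 424 CPM (edgeR adjusted p = 4.75e-11 for a log2 fold change of 5.20 with SE 0.17). GADD45B and GADD45A had log2 fold changes of 3.97 and 2.79. E2F2, an activating E2F, fell from 68.9 and 80.8 CPM to 18.5 and 16.5 CPM (edgeR adjusted p = 2.67e-09 for a log2 fold change of -2.10 with SE 0.10). The CDK inhibitors CDKN2C and CDKN1B fell with -1.89 and -1.06. CDK6 was at 370 and 274 CPM and then 475 and 428 CPM (edgeR adjusted p = 0.00957 for a log2 fold change of 0.49), but at -0.11 with counts derived from TPM. Without 3 h replicate 2 the members called lower went from 7 to 4.

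DNA replication genes were higher in 4 of 31 cases and lower in 7, beside 21.5% and 20.5% of all tested genes, with a median log2 fold change of -0.08. RRM2, the ribonucleotide reductase subunit that limits dNTP supply, rose from 96.1 and 99.8 CPM to 557 and 559 CPM (edgeR adjusted p = 2.13e-10 for a log2 fold change of 2.51 with SE 0.10); 36.9% of its 31-base words occur in other genes. ORC1 fell from 119 and 135 CPM to 65.1 and 57.8 CPM (edgeR adjusted p = 1.01e-06 for a log2 fold change of -1.05). MCM7, with most reads, was not called. Total-count scaling gave 2 higher and 18 lower, removing the GC trend gave 7 higher, and the fit on the 4 compared libraries gave 2 higher.

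Mitosis genes were higher in 9 of 22 cases and lower in 1, beside 21.5% and 20.5% of all tested genes. The median log2 fold change was 0.18, which was -0.11 with 4 higher and 5 lower under total-count scaling. AURKA rose from 98.1 and 106 CPM to 261 and 234 CPM (edgeR adjusted p = 7.05e-08 for a log2 fold change of 1.28 with SE 0.09), with 21.6% of its 31-base words in other genes. TOP2A was at 666 and 526 CPM and then 791 and 724 CPM and was not called (edgeR adjusted p = 0.0578). BUB1B fell with -0.34. Without 3 h replicate 1 the members called higher went from 9 to 5.

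Replication-dependent histone genes passed the filter in 53 of 64 cases, and 13 were lower and 2 higher, beside 20.5% and 21.5% of all tested genes. Their median log2 fold change was -0.26. H4C9 fell from 45.9 and 58.4 CPM to 25.4 and 21.2 CPM (edgeR adjusted p = 2.13e-05 for a log2 fold change of -1.16), while H1-2, with most reads, was at 789 and 948 CPM and then 845 and 619 CPM, with overlapping groups. H2BC1 rose from 2.27 and 2.03 CPM to 5.48 and 4.7 CPM. The number called lower rested on single libraries: it was 3 when either replicate 2 was omitted, 25 on omitting 0 h replicate 1 and 20 on omitting replicate 1 of 3 h. Total-count scaling gave 29. Several of these genes are near-identical copies, and their RNA mostly lacks a poly(A) tail, which ribosomal depletion does not select against.

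Ribosome biogenesis genes were higher in 9 of 29 tested cases and lower in 5, beside 21.5% and 20.5% of all tested genes, with a median log2 fold change of -0.02; RRN3 is not analysed here. NPM1 rose from 1213 and 1053 CPM to 1836 and 1730 CPM (edgeR adjusted p = 0.000354 for a log2 fold change of 0.65), with 69.6% of its 31-base words in other genes, mostly pseudogenes. NOP58 rose with 0.88. POLR1B, a subunit of RNA polymerase I, fell from 44.3 and 44.9 CPM to 19.5 and 17.1 CPM (edgeR adjusted p = 7.02e-07 for a log2 fold change of -1.28 with SE 0.11). Total-count scaling gave 4 higher and 15 lower. Without 0 h replicate 2 or 3 h replicate 2 the members called lower were 2.

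Chromatin loop proteins, a short list, had 3 of 15 higher and 1 lower, beside 21.5% and 20.5% of all tested genes. Their median log2 fold change was -0.01. STAG1 rose from 32.4 and 25.8 CPM to 42 and 42.8 CPM (edgeR adjusted p = 0.00503 for a log2 fold change of 0.54), SMC1A from 332 in both libraries to 420 and 399 CPM, and STAG2 with 0.45. MAU2, the partner of the cohesin loader, fell with -0.31. CTCF was at -0.01 (edgeR adjusted p = 0.931) and RAD21 at -0.27 (edgeR adjusted p = 0.137). The calls were not stable: 0 higher and 7 lower under total-count scaling, 5 lower with the GC trend removed, and, with a library left out, 6 higher (0 h replicate 1), 1 higher with 3 lower (0 h replicate 2), 1 higher (3 h replicate 1) or 0 lower (3 h replicate 2).

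Zinc finger genes of chromosome 19, mostly KRAB repressors of repeats, were lower in 78 of 246 tested cases and higher in 25, beside 20.5% and 21.5% of all tested genes, with a median log2 fold change of -0.27. ZNF792 fell from 31.1 and 33.4 CPM to 3.98 and 3.72 CPM (edgeR adjusted p = 1.14e-10 for a log2 fold change of -3.06 with SE 0.11), and ZNF432 rose from 16.8 and 11.3 CPM to 55.4 and 63 CPM (edgeR adjusted p = 1.34e-07 for a log2 fold change of 2.07 with SE 0.15). The summed CPM of the list was 5182 and 4450 at 0 h and 4674 and 5074 at 3 h, with overlapping groups. Under total-count scaling 128 were lower and 15 higher. The median of this list ran from -0.17 without 0 h replicate 1 to -0.4 without 3 h replicate 2. The 13 protein-coding genes of the mitochondrial genome all had log2 fold changes above 0, from 0.39 to 1.13, with a median of 0.62, and none was called. MT-CO1 was at 5345 and 4373 CPM and then 8436 and 6520 CPM (edgeR adjusted p = 0.0882). All 13 were called with no filter on low counts and 7 in the fit on the compared libraries alone, and mitochondrial reads were 2.88% and 2.30% of the 0 h libraries and 3.29% and 3.19% of the 3 h libraries.

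**Figure D3:**
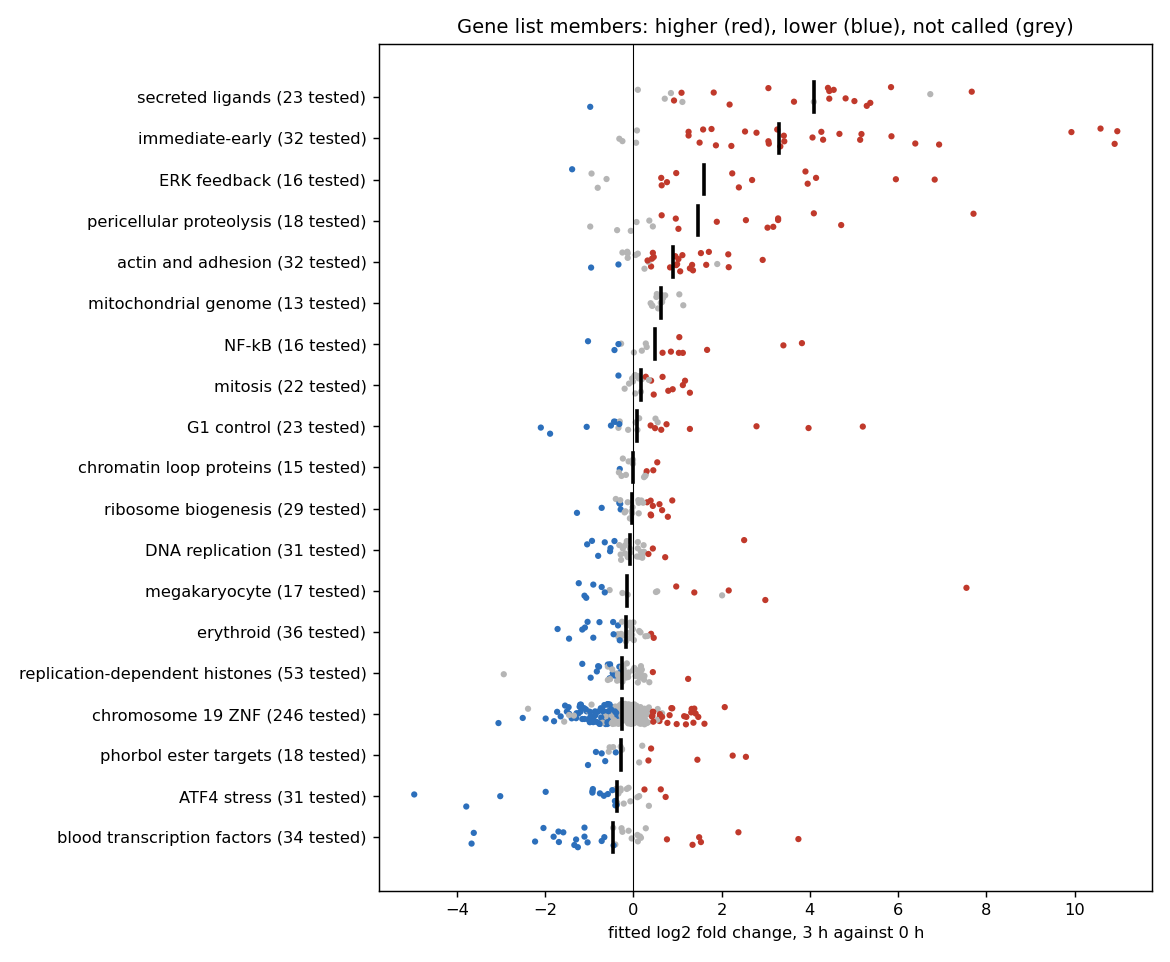
Fitted log2 fold change at 3 h against 0 h for each tested member of 19 gene lists, with red for higher, blue for lower, grey for not called and a black bar at the median, which runs from -0.46 for blood transcription factors to 4.09 for secreted ligands. Ligands, immediate-early genes and proteolysis genes spread far to the right, while blood transcription factors have members on both sides.

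The K562 identity was checked on 8 markers, among them GATA1, TAL1, the globins HBG1, HBG2, HBE1 and HBZ, and TFRC. Their summed level was 1943 and 2222 CPM at 0 h and 2352 and 1748 CPM at 3 h. The counts of other markers called are to be read beside 21.5% higher and 20.5% lower of all tested genes. Markers of monocytes and granulocytes were higher in 5 of 10 tested, and their summed level was 137 and 160 CPM at 0 h and 191 and 182 CPM at 3 h. Of these, MPO went from 0.0614 and 0.0644 CPM to 4.25 and 4.53 CPM (edgeR adjusted p = 2.71e-09), CSF1R had a log2 fold change of 3.45 and ITGAX 1.42. LYZ and CD68, with the most reads, had 0.16 and 0.33 and FCGR1A -0.99, none of them called. Over the 10 tested markers the log2 fold changes ran from -2.39 to 6.04, and none was called lower. S100A8 and ELANE had no reads and S100A9 at most 1 read in a library. The markers called higher were 2 with at least 10 counts required in every library and 3 in DESeq2. Lymphocyte markers were higher in 2 of 5 tested, CD79A and CD79B, both at under 0.5 CPM, and summed to between 14.5 and 18.2 CPM in the 4 libraries. Omitting any of the 4 libraries left 1 of them called, as did DESeq2, and the fit on the compared libraries left 0. Stromal markers were called in 0 of 6 tested, and their sums lay between 27.7 and 33.8 CPM. The part of other cell types in the results was not tested.

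Values at 1.5 h and 6 h place these changes in time; all these comparisons share the 3 h libraries. Against 1.5 h, 4408 genes (25.1%) were called, and against 6 h 7231 genes (41.2%). Of the 3775 genes higher at 3 h than at 0 h, 1967 (52.1%) were also higher than at 1.5 h and 24 were lower. Against 6 h, 1239 of them (32.8%) were lower at 3 h and 704 (18.6%) were higher. Of the 3595 lower genes, 1783 (49.6%) were also lower than at 1.5 h, and against 6 h 1257 (35.0%) were higher at 3 h and 762 (21.2%) were lower.

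The counts of each list against these times are given beside the 2280 higher and 2128 lower of all 17559 genes against 1.5 h, and the 3888 higher and 3343 lower against 6 h; differences between lists were not tested. Of the immediate-early genes, 14 of 32 were higher at 3 h than at 1.5 h and 5 lower, and EGR1 was at 3218 and 3632 CPM at 1.5 h, a level from which 3 h was not called different (edgeR adjusted p = 0.38). FOS was lower at 3 h than the 352 and 360 CPM of 1.5 h (edgeR adjusted p = 0.000235). Of the secreted ligands, 16 of 23 were higher at 3 h than at 1.5 h, and 15 were lower at 3 h than at 6 h. Actin and adhesion genes did likewise, with 22 of 32 higher than at 1.5 h and 18 lower than at 6 h. Of the ATF4 list, 25 of 31 were higher at 3 h than at 6 h, with a median log2 difference of 1.24, and 13 were lower at 3 h than at 1.5 h. Erythroid genes were higher at 3 h than at 6 h in 20 of 36 cases. GATA1 stood at 85.4 and 89.7 CPM at 1.5 h and at 9.31 and 9.98 CPM at 6 h, below both 3 h libraries.

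**Figure D4:**
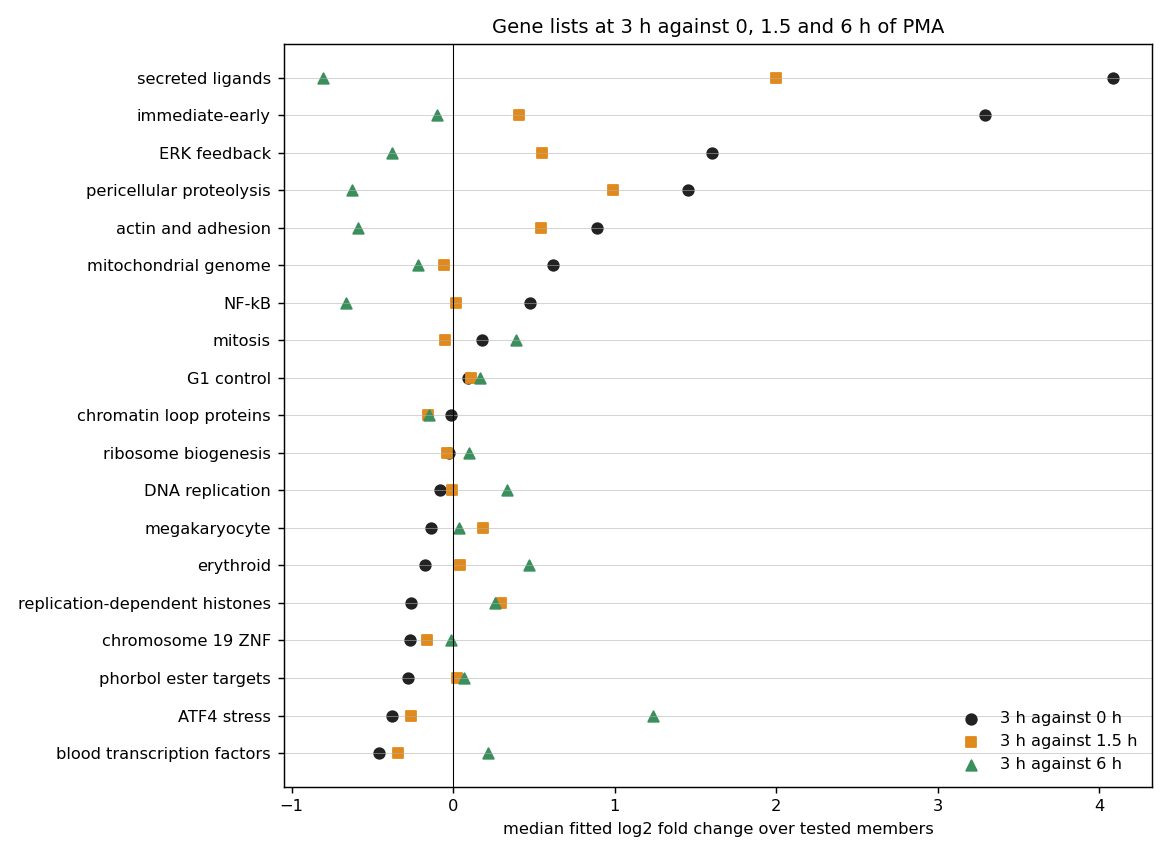
Median fitted log2 fold change over the tested members of each list for 3 h against 0 h (circles), 1.5 h (squares) and 6 h (triangles); the comparisons share the 3 h libraries. Secreted ligands lie at 4.09, 2.00 and -0.81, and the ATF4 list at -0.38, -0.26 and 1.24.

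A set of 281 genes (1.60% of those tested) was higher at 3 h than at 0, 1.5 and 6 h, and 464 (2.64%) were lower than at all 3. The peaks named are those with the largest values of the smallest of their 3 differences. ARC had the largest log2 fold change of these against 0 h, with 21.5 and 12.3 CPM at 1.5 h and 166 and 158 CPM at 6 h around its 899 and 616 CPM at 3 h. LRRC32, which anchors latent TGF-beta on platelets and regulatory T cells, was at 0.276 and 0.29 CPM at 0 h, 17.5 and 14.6 CPM at 3 h and 2.01 and 2.51 CPM at 6 h. PKDCC, a secreted tyrosine kinase, was at 0.706 and 0.901 CPM untreated, 17.1 and 13.9 CPM at 3 h and 0.854 and 0.708 CPM at 6 h, so that its 6 h libraries were back in the range of the untreated ones. MMP25, a membrane-anchored metalloproteinase, had 2 reads and 1 read at 0 h, 45.1 and 49.1 CPM at 3 h and 11.3 and 12.7 CPM at 6 h.

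The troughs named by the same rule were SYBU, TADA1, HOXB2 and FIGNL1. TADA1, a subunit of the SAGA coactivator, was at 18.8 and 15 CPM at 0 h, 10.2 and 9.6 CPM at 1.5 h, 3.81 and 3.49 CPM at 3 h and 12.3 and 10.6 CPM at 6 h. HOXB2 went from 30.8 and 43.6 CPM to 11.5 and 8.51 CPM at 3 h, with 22.9 and 26 CPM at 6 h. FIGNL1, an ATPase of recombination repair, went from 34.2 and 26.1 CPM to 10.7 and 10 CPM at 3 h, with 29.7 and 28 CPM at 6 h. SYBU was at 3.12 and 3.47 CPM at 6 h, against about 0.5 CPM at 3 h. Removing the GC trend gave 463 peaks and 699 troughs, and total-count scaling gave 702 troughs.

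Transcript estimates showed genes whose reads came from another transcript at 3 h. Of 7833 protein-coding genes with at least 10 CPM in each library and a leading share within 20 percentage points between replicates, 563 had another leading transcript at 3 h than at 0 h. The 7833 were not limited to genes with at least 2 listed transcripts, and genes with fewer cannot change their lead. These shares are described without a test, since a usage test on simulated reads called 283 genes of which 227 were false. In NR4A1, an orphan nuclear receptor and immediate-early gene, the gene as a whole rose from 10.6 and 11.3 CPM to 723 and 534 CPM. Its transcript NR4A1-206 held 89.6% and 89.7% of the reads at 0 h and 4.11% and 6.16% at 3 h. NR4A1-204, which starts 13687 bases further into the gene at position 52051402 of chromosome 12, held 0 reads at 0 h and 72.2% and 58.9% of the reads at 3 h.

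TSC22D1, a leucine zipper gene with long and short protein forms, rose from 21.4 and 19.5 CPM to 227 and 184 CPM (edgeR adjusted p = 5.13e-10 for a log2 fold change of 3.33 with SE 0.14). Its short form, TSC22D1-201, starts 139720 bases from the long TSC22D1-203 on chromosome 13. The short form went from 42.3% and 39.2% of the reads to 93.6% and 91.5%, and the long form from 42.2% and 43.3% to 2.64% and 2.96%. In MITF, GNB1L and SEC22C the leading transcript also changed in the estimates. MITF-204 went from 70.1% and 55.6% to 11.6% and 14.1%, with MITF-218 at 63.9% and 51.3% at 3 h. Their starts lie 47 bases apart and they end at the same position, with lengths of 4814 and 4767 bases. Reads of this pair can hardly be told apart, and the change of lead in MITF is uncertain. GNB1L-201 went from 17% and 12.2% to 59.2% and 74.8%, and 22.2% of the 31-base words of GNB1L are shared with RTL10. SEC22C-211 went from 15.1% and 0% to 62.2% and 53.2%, with unequal untreated replicates.

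**Figure D5:**
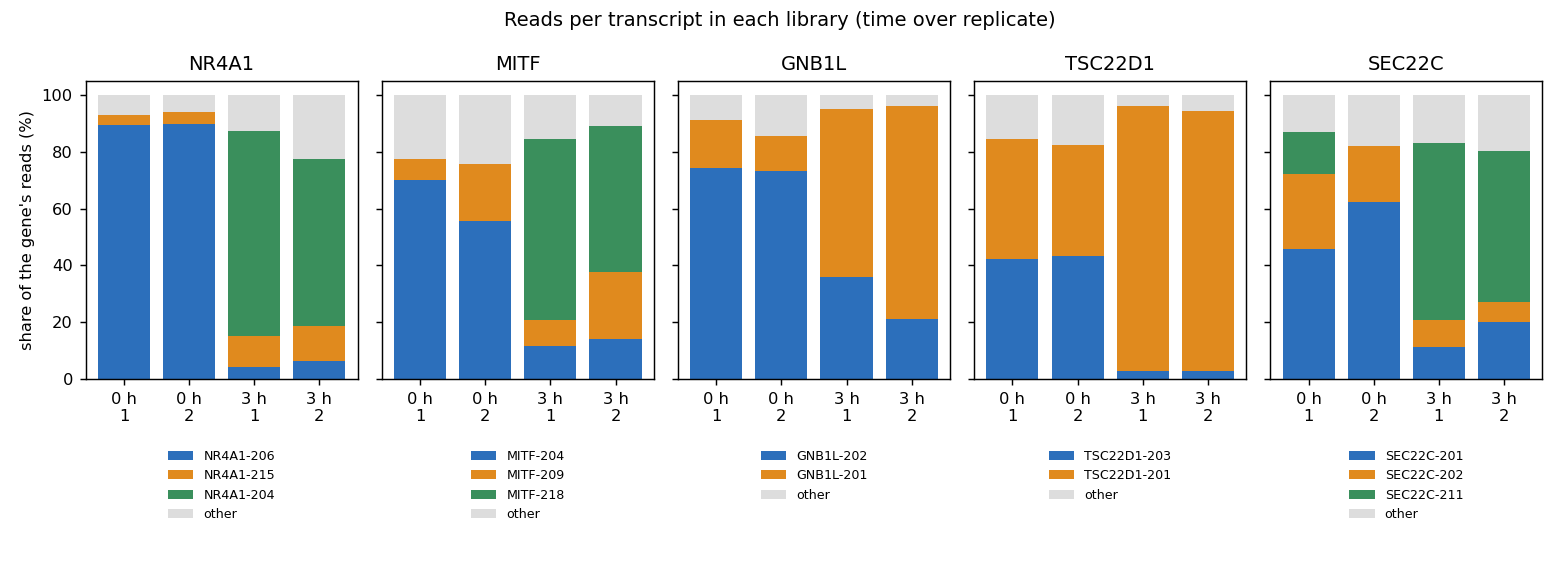
Share of each gene's estimated reads per transcript in the 2 libraries of 0 h and the 2 of 3 h, for the 5 called genes with the largest difference in a share; transcripts under 10% at both times are pooled in grey. In NR4A1 the share of NR4A1-206 averages 89.7% at 0 h and 5.13% at 3 h, and in TSC22D1 that of TSC22D1-201 goes from 40.8% to 92.5%.

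Protein-coding genes called at least 2-fold higher or lower differed in form. The 1443 higher genes had a median level of 1.83 CPM at 0 h and 10.38 CPM at 3 h, and the 934 lower genes 12.32 and 4.43 CPM; these levels were part of the choice. Their median genomic span was 28.3 kb for the higher and 15.8 kb for the lower genes, where all 15426 tested protein-coding genes had 32.2 kb. Single-exon genes made up 3.60% of the higher, 8.57% of the lower and 3.34% of all. The median GC content, averaged over a gene's listed transcripts with their reads as weights, was 52.7%, 54.6% and 49.1% in the same order. These are descriptions with no test.

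Promoter letters were counted over the same kinds of genes, again as a description. AP-1 letters were matched in 10.2% of 488 promoters of genes called at least 4-fold higher, in 2.68% of 112 promoters of those at least 4-fold lower and in 5.04% of all. CArG boxes were matched in 2.66%, 0.00% and 1.15%. The ETS letters CCGGAAGT, typical of housekeeping promoters, were matched in 1.43%, 4.46% and 7.78%, and the EGR letters GCGNGGGCG in 17.6%, 17.0% and 14.5%. Chromosome 19 zinc finger genes, counted apart, held the ETS letters in 44 of 216 promoters. Matches of different motifs may overlap and were counted for each.

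Few non-coding genes met the rule for naming, and few were tested. Of the 17559 genes tested, 15426 were protein-coding, 2090 were pseudogenes and 43 were of other kinds. The totals of called genes include 312 pseudogenes higher and 373 lower. TRIM67-AS1, antisense to TRIM67, had no reads at 0 h and 10.1 and 9.04 CPM at 3 h, a rise of at least 99.1-fold, with 0 reads at 6 h; the call was lost in the DESeq2 Wald test (adjusted p = 0.148). TRIM67 itself was at 6.66 and 7.31 CPM at 0 h and at 120 and 124 CPM at 3 h (edgeR adjusted p = 1.09e-10 for a log2 fold change of 4.12). Strand use in the counting is not given in the sources used here, so that antisense and sense reads cannot be told apart with certainty. BLACAT1 rose from 1.69 and 1.77 CPM to 11.6 and 13.2 CPM (edgeR adjusted p = 7.37e-10 for a log2 fold change of 2.84 with SE 0.12), and its exons overlap LEMD1. LINC01667 fell from 127 and 136 CPM to 58.4 and 60.6 CPM (edgeR adjusted p = 3.11e-05 for a log2 fold change of -1.14). FAM95B1 and CYP4F59P fell by 0.85 and 0.86 on the log2 scale, but 99.3% and 98.3% of their 31-base words occur in other genes, including each other, and both are uncertain.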

How the data were processed

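Total RNA of K562 cells was extracted with a column kit and DNase and made into ribosome-depleted libraries, per the labels' protocols. The submitters' processing notes name Trim Galore 0.4.3 for trimming and Salmon for quantification, beside HISAT2, SAMtools, deepTools and DESeq2, and the builds hg19 and hg38; which steps made these files is not given in the sources used here. Each deposited table gives estimated counts per transcript (NumReads) and TPM, per the file headers; the estimated counts were used, and TPM, which the authors' files scale to a fixed sum per library, served only in an alternative. Of 177456 transcripts listed, 167027 (94.12%) matched GENCODE 29 (GRCh38) and were summed to 35052 genes and rounded to whole numbers; unmatched transcripts, 3.09% to 3.75% of reads in the compared libraries, were left out, so that 0 assigned reads do not show a gene to be silent.

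Genes passing edgeR's filter over 16 libraries were scaled by trimmed means and fitted together by edgeR 4.0.16 (quasi-likelihood, R 4.3.3, limma 3.58.1), with residual degrees of freedom of 8, prior degrees of freedom of 5.28 and a common biological coefficient of variation of 0.123. The contrasts were 3 h against 0, 1.5 and 6 h, and a gene was called at an adjusted p under 0.05. DESeq2 1.42.0 served as an alternative. Replicates differed by far more than sampling noise, with chi-square values per gene of 46.2 at 0 h and 24.1 at 3 h, and each counted as a sample. Simulated counts for 17049 genes with 200 changed gave back 77% of 2-fold and 100% of 4-fold changes, with 9 false calls among 186. The simulation gave each gene the same spread at all times and changed only genes above a minimum level. In the data the 0 h and 3 h pairs were less alike than most others, so these figures may not hold for this comparison. A transcript usage test run on simulated data for 11889 genes made 227 false calls among 283 and was not applied to the files.

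Genes named are the 8 largest protein-coding rises and falls among called genes with at least 5 CPM in the higher group, replicates within 2-fold there and no overlap of groups; up to 3 lncRNA genes each way by the same rule; the largest rise, largest fall and most-read member of each list; the 4 clearest peaks and troughs; the 5 largest transcript share differences; and any member of lists of up to 16. The members of the comparison and the gene lists were chosen with earlier results of these data known. Sequences are from RefSeq (GRCh38.p14). Intervals and floors cover counting error only. Alternatives are given in the closing section. Some genes that the rule would name are not reported here.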

Additional observations from a re-analysis of the deposited data

How the results depend on the processing

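The alternatives were other scaling, filtering, testing and count sources, a replicate block, removal of each library's GC trend, and leaving out each library. Totals: with libraries scaled to total counts, 2356 genes were higher, 6242 lower (27.4% of calls higher) and 702 were lower than at 0, 1.5 and 6 h. Genes changed at least 2-fold, called or not, numbered 3661, or 7906 with no filter and 2069 with at least 10 counts in every library. With the GC trend removed, 463 peaks and 699 troughs were found. The 4 compared libraries alone gave 4823 calls, 2421 of them higher. A test against a 1.5-fold change gave 2907 calls (1686 higher, 1221 lower), 1354 against 1.5 h, 2646 against 6 h, 70 peaks and 46 troughs; at an adjusted p under 0.01 there were 153 and 247. Leaving out a library gave 6067 to 7421 calls at 3 h against 0 h. DESeq2 called 6980 genes, 6795 in the same direction as edgeR.

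Same-numbered replicates did not deviate together at 0 h and 3 h (r = -0.10), and over the 28 pairs of times r lay between -0.10 and 0.188, was above 0 in 26 and over 0.1 in 11. With the replicate block 7733 genes were called, 7326 of them in the same direction as without it, and 8754 with the GC trend also removed.

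List medians that changed sign: megakaryocyte, 0.03 with the GC trend removed (0.03 with the block) and -0.29 to 0.06 with a library left out (0.06 without 0 h replicate 2); ribosome biogenesis, 0.02 with TPM-derived counts, 0.08 with the GC trend removed (0.08 with the block), -0.02 to 0.12 with a library left out (0.03 and 0.12 without 0 h replicate 1 and 2, 0.11 without 3 h replicate 2); G1 control, -0.20 with total counts and -0.06 with TPM-derived counts; mitosis, -0.11 with total counts; chromatin loop proteins, 0.01 with DESeq2 size factors and 0.01 with DESeq2, -0.07 to 0.22 with a library left out (0.22 without 0 h replicate 1, 0.01 without 3 h replicate 1); K562 markers, -0.31 to 0.17 with a library left out (0.12 without 0 h replicate 2, 0.17 without 3 h replicate 2); lymphocyte markers, -0.09 with total counts and -0.04 to 0.27 with a library left out (-0.04 without 0 h replicate 1); stromal markers, -0.23 to 0.06 with a library left out (0.06 without 3 h replicate 2). Genes that changed sign, where the main or the alternative fit called them: FAM95B1 (0.08), TFRC (-0.24) and CDK6 (-0.11) with TPM-derived counts, and WARS1 (-0.03) with total counts. The causes were not tested. Of the other alternative values for named genes, 1000 kept their side of the threshold, 36 lost the call and 10 gained it. Those of the 1000 that were called also kept direction, while a change of sign that neither fit called was counted among them. The planned usage alternatives were not run on the files.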
